A study of Mus musculus with 10 samples.

Results

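The axon guidance ligands and receptors form 68 genes, 33 receptors and 35 ligands, of the 19937 genes measured with a probe set of their own in this series. They were chosen by gene symbol alone, as every semaphorin of classes 3 to 7, plexin, neuropilin, Eph receptor, ephrin, Robo, Slit, netrin, Unc5 and Dcc gene that the platform annotation pairs with a probe set of 1 symbol. Of their 72 probe sets, the one with the highest mean over all 10 arrays stands for each gene, a choice that matters only for *Epha10*, *Ephb1*, *Sema4d* and *Unc5d*. The study profiled sacral neural crest progenitors (NCPs) of the mouse pelvic ganglia by microarray, with total embryo RNA as the reference. The NCP group holds 3 arrays of RNA from *Sox10*-H2BVenus+ cells, isolated by flow sorting from pelvic ganglia of transgenic fetuses at embryonic day 13. Tissue of several fetuses was pooled per sample. The total embryo group holds 7 arrays of whole embryo RNA, whose stage and genotype the labels do not give, and no treatment of either group is given. The transgene carries *Sox10* regulatory sequence that drives a nuclear yellow fluorescent protein. It marks crest-derived progenitors and glia, and early neurons keep the protein for a short time, so the sort is not of progenitors alone. Total embryo RNA is a mixture of all tissues, and in such a mixture fewer cells of a type and less RNA per cell cannot be told apart.

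Axon guidance genes encode cues and the receptors that read them at the tips of growing axons and on migrating cells. Secreted class 3 semaphorins bind neuropilins, which signal through plexins, while most other semaphorins are membrane-bound and bind plexins directly. Ephrins are membrane-anchored ligands of the Eph receptor tyrosine kinases, Slits are secreted ligands of Robo receptors, and netrins act through Dcc and the Unc5 family. Neural crest cells use the same systems on their way to the ganglia, where semaphorin and neuropilin signaling is known for shaping sympathetic ganglia and ephrins for steering crest streams.

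The values are log2 levels from robust Multi-Array Average (RMA), and NCP arrays spanned a narrower range than total embryo arrays. The standard deviation (SD) over probe sets was 0.97 to 1.13 on NCP arrays and 1.78 to 1.91 on total embryo arrays. The 1190 chemosensory receptor genes (*Olfr*, *Vmn1r* and *Vmn2r*), whose expression is largely limited to the nose, were taken as a floor, and their median was 5.39 to 5.62 on NCP arrays and 3.63 to 3.88 on total embryo arrays. The 3 NCP arrays carry 3 different sample numbers in their titles. The 7 total embryo arrays carry only 2, one on 4 arrays and the other on 3. This takes a spelling that lacks a digit in a title as the same number, which the labels do not state. Arrays of a sample number may be repeats of the same RNA, and p-values then measure a spread that may be partly technical. All NCP arrays share their title date with only 1 total embryo array, replicate 1. *Sox10*, the transcription factor whose regulatory sequence drives the sort marker, stood at 7.95, 7.14 and 7.60 on the NCP arrays, above the 6.38 to 6.65 of total embryo (adjusted p = 0.000278). Crest and glial markers, *Sox10* included, went both ways, with 4 of 14 genes higher and 5 lower in NCPs, among them *Foxd3* at a log2 fold change of 1.33 and *Erbb3* at -1.20. The median gene of that list lay at the 86.9th to 95.6th percentile of the floor genes on NCP arrays and at the 99.4th to 99.9th on total embryo arrays. *Erbb3* and *Cdh19*, genes of crest-derived glia, lay lower, at the 45.0th and 57.7th percentile on average over the NCP arrays. *Cdh19*, at the 32.9th percentile on total embryo arrays, had the largest increase of the list (2.30), and *Fabp7* the largest decrease (-4.39). Among autonomic neuron markers 9 of 18 genes were higher and 5 lower in NCPs, and the mean level of the list was 6.62 to 7.39 on NCP arrays and 6.82 to 7.31 on total embryo arrays. Of 12 central nervous system markers 7 were higher and 1 lower, and of 4 erythroid markers 2 were higher and 2 lower. In these values no marker was higher among 10 of endothelium, 13 of mesenchyme and smooth muscle, 13 of epithelium, 12 of striated muscle, 9 of liver and 8 of immune cells. Over all genes, 34.8% were called higher and 31.0% lower. The marker counts changed with the level adjustment and the averaging of repeat arrays described further on. The shares of all genes were 8.24% and 8.69% after level adjustment, and 16.3% and 16.9% with averaging. Autonomic neuron markers were then 7 higher and 0 lower after level adjustment and 0 higher and 2 lower with averaging, and central nervous system markers 2 higher and 0 lower after level adjustment and 0 each way with averaging. Crest and glial markers were 2 higher and 2 lower after level adjustment and 2 higher and 3 lower with averaging, where *Sox10* did not pass (adjusted p = 0.0584). No erythroid marker passed after level adjustment, 1 was higher and 2 lower with averaging, and 1 mesenchyme and smooth muscle marker was higher after level adjustment. The part of any of these in the guidance gene differences was not tested.

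The guidance genes differed from total embryo in both directions in NCPs. Of 68 genes 16 were higher (23.5%), 18 were lower (26.5%) and 34 did not pass the test. The test was limma on all 10 arrays with p-values adjusted over 28192 probe sets and a threshold of 0.05. Over all genes, 34.8% were called higher and 31.0% lower, and both shares are larger than those of the members. The members' median log2 fold change (NCP minus total embryo) was 0.11, beside 0.079 over all genes. Each of the 3 NCP arrays exceeded all 7 total embryo arrays for 13 members (19.1%), against 28.0% of all genes, and each was below all 7 for 14 members (20.6%), against 24.6%.

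The direction of a guidance gene followed its level in total embryo, as it did for genes at large. Of 10 members with a total embryo mean of at most 5.5, 6 were higher in NCPs (60.0%) and none was lower, while 85.8% of all genes in that range were called higher. Of 9 members above 7.5, all were lower, with a median log2 fold change of -1.58, and 90.0% of all genes in that range were called lower with a median of -1.72. In between, 9 of 32 members at 5.5 to 6.5 were higher and 1 lower, against 26.9% and 5.6% of all genes. At 6.5 to 7.5, 1 of 17 was higher and 8 lower, against 3.27% and 53.2% of all genes. The total embryo level enters both sides of this relation. Of the chemosensory receptor genes 1139 were called higher in NCPs, with a median log2 fold change of 1.66.

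**Figure D1:**
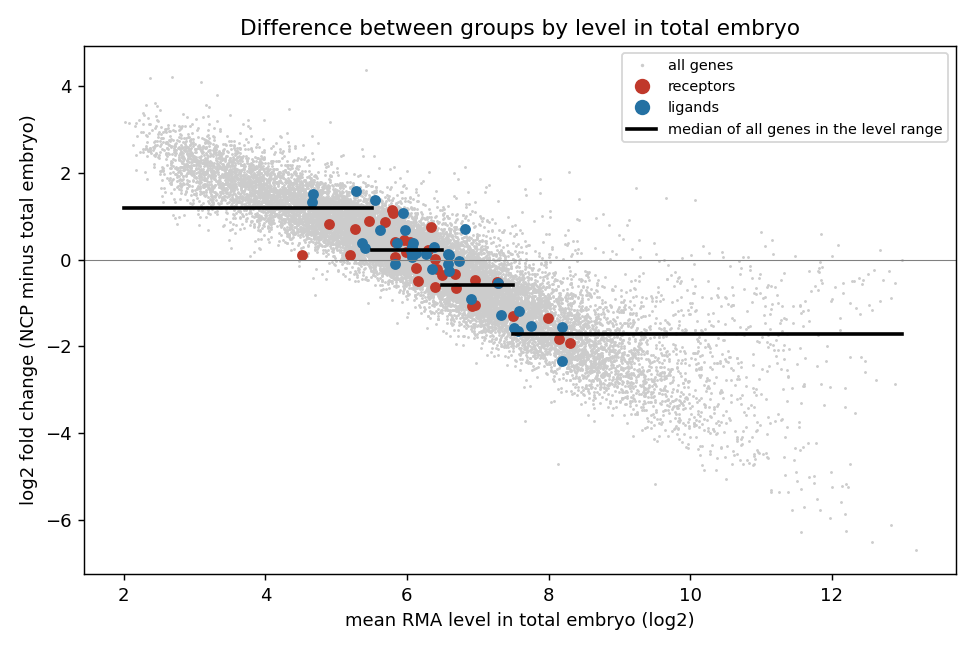
Log2 fold change (NCP minus total embryo) on the vertical axis against the mean RMA level in total embryo (log2) on the horizontal axis. Grey points are all 19937 genes, red points the 33 receptors, blue points the 35 ligands, and black lines the median of all genes in 4 level ranges (1.18, 0.21, -0.60 and -1.72 by rising level). The guidance genes lie within the grey cloud and turn from higher to lower in NCPs as the level in total embryo rises.

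Because of this relation a second fit is given beside the first, in which the smooth trend of each array's difference from the total embryo mean on that mean was subtracted (level adjustment). After it 7 members were higher and 5 lower in NCPs, against 8.24% and 8.69% of all genes, and the median was 0.016. Averaging the total embryo arrays of each sample number before the unadjusted fit left 7 members higher and 10 lower, against 16.3% and 16.9% of all genes. With both changes together no member passed in limma, the lowest adjusted p was 0.386 and 4 members had an unadjusted p under 0.05, all higher. That fit called only 4 of all genes. It has 3 arrays against 2 averages. Against total embryo replicate 1 alone, the array of the NCP title date, the spread of total embryo cannot be measured, so calls are not counted. There *Sema3c* stood at -2.28 and *Sema4f* at 1.49, the largest decrease and increase among the members in the first fit. The median over all genes was 0.15.

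Receptors and ligands each held genes of both directions. Among the 33 receptors 7 were higher (21.2%) and 9 lower (27.3%) in NCPs, with a median log2 fold change of 0.012. Among the 35 ligands 9 were higher (25.7%) and 9 lower (25.7%), with a median of 0.13. All of these shares are below the 34.8% higher and 31.0% lower of all genes, which also stand beside the counts by family that follow. After level adjustment 3 receptors were higher and 3 lower (9.09% each, median -0.050). Of the ligands 4 were then higher (11.4%) and 2 lower (5.71%, median 0.071), against 8.24% and 8.69% of all genes. The difference of the medians has no test, since genes are not replicates.

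**Figure D2:**
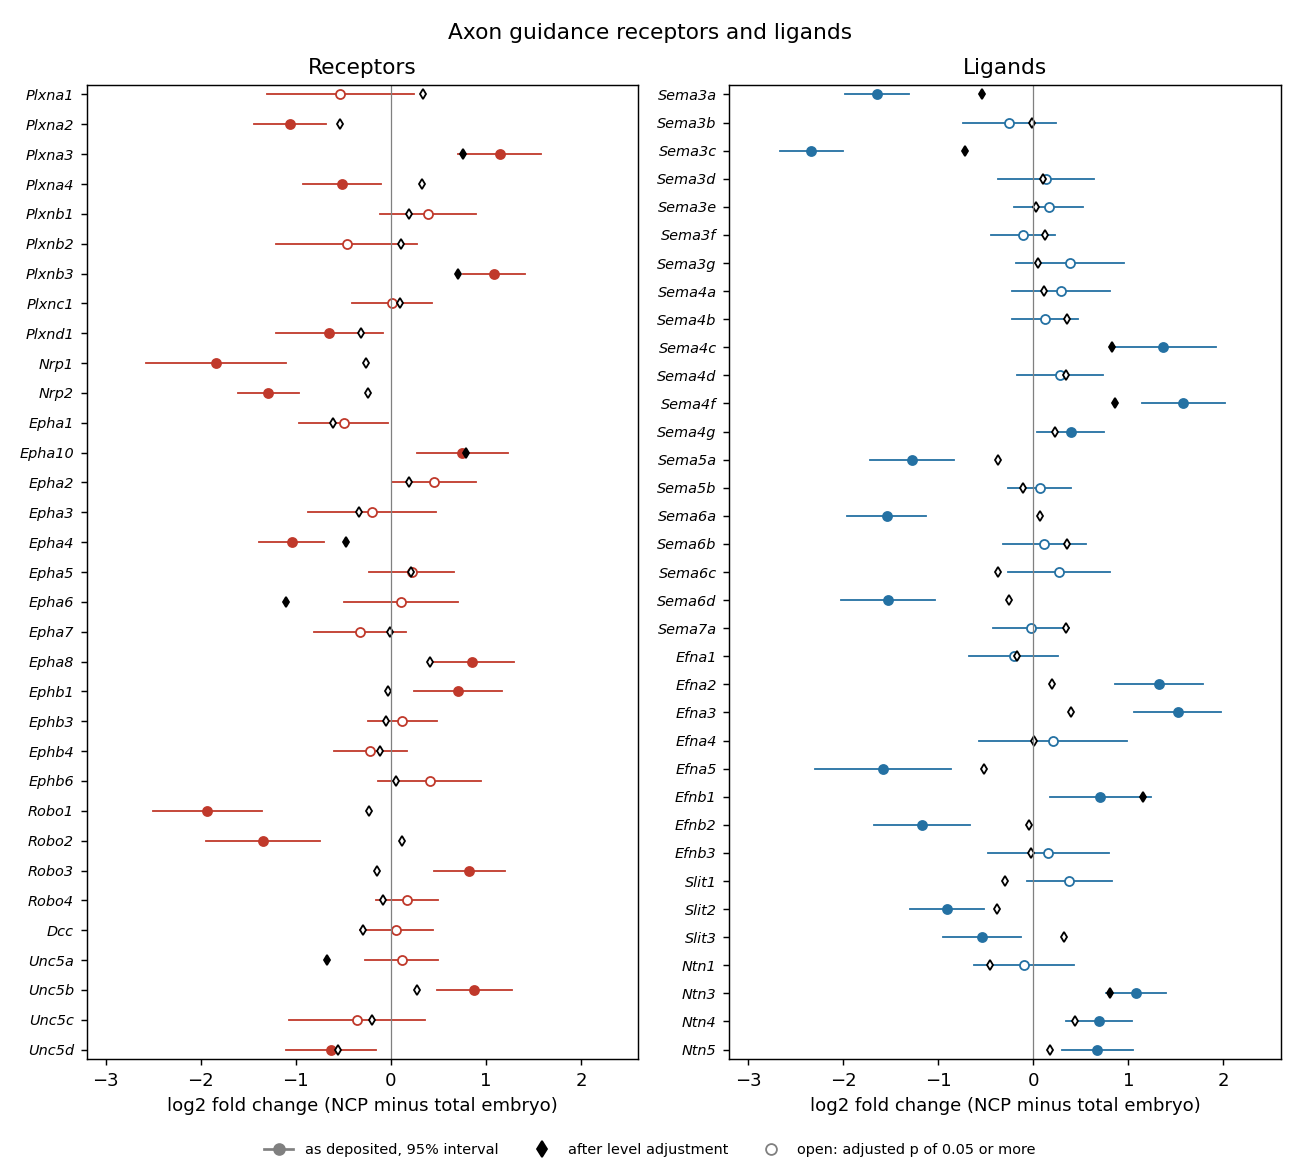
Log2 fold change (NCP minus total embryo) of each of the 33 receptors (left) and 35 ligands (right), as circles with 95% intervals from the fit to the deposited values (n = 3 NCP and 7 total embryo arrays), and after level adjustment as diamonds. Open symbols have an adjusted p of 0.05 or more. Both panels hold genes on either side of 0, from *Sema3c* at -2.34 to *Sema4f* at 1.58, and the diamonds lie nearer to 0 for most members far from it.

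Most guidance genes were near the floor on NCP arrays. On NCP arrays 1, 2 and 3 there were 12, 11 and 20 members above the 95th percentile of the floor genes of the same array, and 56 to 63 on the total embryo arrays. On all 7 total embryo arrays 53 members were above it. On all 3 NCP arrays only the netrin gene *Ntn3* was. The median member lay at the 79.5th to 88.3rd percentile of the floor genes on NCP arrays and at the 98.7th to 99.6th on total embryo arrays. Over all genes these medians were 73.5 to 84.2 and 98.8 to 99.3.

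Among the 7 class 3 semaphorins, the secreted ligands of neuropilins, 2 were lower in NCPs, none was higher and 5 did not pass. *Sema3a*, which repels axons and crest cells, stood at 6.04, 5.83 and 5.89 on the NCP arrays and at 7.30, 7.61 and 7.74 on total embryo arrays (lowest, median, highest). All NCP arrays were below all total embryo arrays, with a log2 fold change of -1.65 ± 0.16 (standard error) and an adjusted p of 1.73e-06. *Sema3c*, which is known for its part in the cardiac crest and outflow tract, stood at 5.95, 6.01 and 5.61 on the NCP arrays and at 8.11, 8.15 and 8.38 on total embryo arrays. It had the largest decrease of any member at -2.34 ± 0.15 (adjusted p = 9.64e-08). Both remained lower after level adjustment, *Sema3a* at -0.54 (adjusted p = 0.0355) and *Sema3c* at -0.72 (adjusted p = 0.0126), and both passed with arrays averaged per sample number (adjusted p = 0.00714 and 0.00344). On NCP arrays they lay at the 70.6th and 67.5th percentile of the floor genes on average. *Sema3f*, the ligand that acts through *Nrp2*, averaged 6.47 ± 0.19 in NCPs and 6.58 ± 0.12 in total embryo (SD), a difference of -0.11 with an interval of -0.44 to 0.22 that did not pass and turned to 0.12 after level adjustment. The other 4 class 3 members had log2 fold changes of -0.25 to 0.38.

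Of the 8 members that passed before and after level adjustment and with arrays averaged per sample number, the promoters of 4 are shown. *Ntn3* and *Plxnb3* had the lowest adjusted p after level adjustment of those higher in NCPs, and *Sema3a* and *Sema3c* are the lower class 3 semaphorins. Each is the 250 bases before the RefSeq start in build GRCm38.p6, read 5′ to 3′ on the gene's strand: *Ntn3* at chr17:24209388-24209637 (minus strand), *Plxnb3* at chrX:73756853-73757102 (plus strand), *Sema3a* at chr5:13396534-13396783 (plus strand) and *Sema3c* at chr5:17574566-17574815 (plus strand). Capitals mark matches on either strand to GGGCGG (the GC box, CCGCCC on the other strand), ACAAAG (a core motif of SOX proteins, CTTTGT on the other strand) or TATAAA (the TATA box, which has no match in these 4 and reads TTTATA on the other strand).
Ntn3: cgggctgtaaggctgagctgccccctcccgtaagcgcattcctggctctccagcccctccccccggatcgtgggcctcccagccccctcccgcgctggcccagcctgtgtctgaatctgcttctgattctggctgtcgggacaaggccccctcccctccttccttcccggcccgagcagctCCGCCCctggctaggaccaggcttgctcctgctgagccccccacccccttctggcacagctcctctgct
Plxnb3: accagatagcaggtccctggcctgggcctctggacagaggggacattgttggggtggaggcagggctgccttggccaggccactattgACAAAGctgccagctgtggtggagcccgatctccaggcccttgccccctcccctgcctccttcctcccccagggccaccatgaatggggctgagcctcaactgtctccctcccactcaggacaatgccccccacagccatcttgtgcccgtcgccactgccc
Sema3a: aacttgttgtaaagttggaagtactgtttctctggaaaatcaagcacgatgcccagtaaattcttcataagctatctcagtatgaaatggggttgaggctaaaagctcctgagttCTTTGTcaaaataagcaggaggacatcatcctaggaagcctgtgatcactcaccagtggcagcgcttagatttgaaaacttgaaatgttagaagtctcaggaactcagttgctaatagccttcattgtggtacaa
Sema3c: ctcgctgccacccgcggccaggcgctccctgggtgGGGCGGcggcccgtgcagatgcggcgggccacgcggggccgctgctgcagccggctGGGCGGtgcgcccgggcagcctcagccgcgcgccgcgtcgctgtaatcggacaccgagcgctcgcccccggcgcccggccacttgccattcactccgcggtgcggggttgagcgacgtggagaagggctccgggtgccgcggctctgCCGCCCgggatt
The *Sema3c* window has 3 GC boxes and 78.4% G and C, and the *Sema3a* window has none and 40.8%, beside a median of 52.4% over 32851 promoters. *Ntn3* has 1 GC box and 69.2% G and C, and *Plxnb3* and *Sema3a* have 1 ACAAAG match each, as does *Sema4f* among the 4 not shown. Of all promoters 32.7% hold GGGCGG, 16.5% ACAAAG and 12.4% TATAAA. Of the 58 members with a RefSeq promoter, 44 hold GGGCGG, 7 ACAAAG and 2 TATAAA. A member counts if any of its RefSeq starts has the match, whereas the shares are of single promoters. The counts and the shares are therefore unlike measures. A match is a description of the letters and not a binding site.

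Among the 13 semaphorins of classes 4 to 7, which are mostly transmembrane ligands, 3 were higher in NCPs, 3 were lower and 7 did not pass. *Sema4f* stood at 6.59, 7.43 and 6.57 on the NCP arrays and at 5.04, 5.36 and 5.45 on total embryo arrays, and had the largest increase of any member at 1.58 ± 0.20 (adjusted p = 1.94e-05). It averaged the 94.8th percentile of the floor genes on NCP arrays and the 93.4th on total embryo arrays. *Sema4c*, a ligand of plexin B2, stood at 7.60, 6.86 and 6.29 on the NCP arrays and at 5.07, 5.62 and 5.87 on total embryo arrays, a difference of 1.36 ± 0.26 (adjusted p = 0.000452). In both genes the groups did not overlap, and both stayed higher after level adjustment (0.85 and 0.82, adjusted p = 0.00870 and 0.0396). *Sema4g*, the third, passed narrowly at 0.39 and overlapped between groups. It did not pass with averaging (adjusted p = 0.364), or without NCP replicate 1 or 2 or any 1 total embryo array. *Sema6a*, a transmembrane ligand of A-type plexins, stood at 6.71, 6.72 and 6.51 on the NCP arrays and at 7.88, 8.12 and 8.51 on total embryo arrays (-1.54 ± 0.19, adjusted p = 1.63e-05). *Sema6d*, a ligand of plexin A1, stood at 6.81, 5.71 and 6.17 on the NCP arrays and at 7.57, 7.63 and 8.21 on total embryo arrays (-1.53 ± 0.23, adjusted p = 7.24e-05). *Sema5a* was lower at -1.28. None of these 3 decreases passed after level adjustment, where *Sema6a* stood at 0.071, *Sema6d* at -0.25 and *Sema5a* at -0.37.

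Among the 9 plexins, the signaling receptors of semaphorins, 2 were higher in NCPs, 3 were lower and 4 did not pass. *Plxna3*, which carries class 3 semaphorin signals with neuropilins, stood at 7.37, 6.73 and 6.68 on the NCP arrays and at 5.45, 5.89 and 6.01 on total embryo arrays. *Plxnb3*, a receptor of *Sema5a*, stood at 6.86, 6.74 and 7.05 on the NCP arrays and at 5.61, 5.78 and 6.01 on total embryo arrays. Both were above total embryo on all 3 NCP arrays, by 1.14 ± 0.20 (adjusted p = 0.000291) and 1.08 ± 0.15 (adjusted p = 3.95e-05), and stayed higher after level adjustment by 0.76 and 0.71 (adjusted p = 0.0197 and 0.00571). *Plxna2*, a partner of neuropilins and of class 6 semaphorins, stood at 5.67, 6.21 and 5.66 on the NCP arrays and at 6.64, 6.95 and 7.07 on total embryo arrays (-1.06 ± 0.18, adjusted p = 0.000157). Its decrease of -0.53 after level adjustment had an adjusted p of 0.0527. *Plxnd1*, the receptor of *Sema3e* in vessels, was lower at -0.65 with an adjusted p of 0.0422. That call was lost without NCP replicate 1 or 2 or any of total embryo replicates 3 to 7 (log2 fold change -0.55 to -0.64), and the 2 total embryo sample numbers differed by 0.72. *Plxna4* was lower at -0.52 and stood at 0.33 after level adjustment. Its call was lost without NCP replicate 1 or 2 or total embryo replicate 4 or 5 (-0.42 to -0.49, adjusted p = 0.0520 to 0.0917) and with averaging (adjusted p = 0.243), as was that of *Plxnd1* (adjusted p = 0.213).

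Both neuropilins, the binding receptors of class 3 semaphorins and of vascular endothelial growth factor, were lower in NCPs. *Nrp1*, the *Sema3a* receptor, stood at 5.63, 7.58 and 5.70 on the NCP arrays and at 7.95, 8.16 and 8.33 on total embryo arrays (-1.84 ± 0.34, adjusted p = 0.000384). NCP array 2 came near the total embryo arrays, while arrays 1 and 3 lay at the 59.7th and 63.4th percentile of their floor genes. *Nrp2*, the *Sema3f* receptor, stood at 6.16, 6.15 and 6.31 on the NCP arrays and at 7.32, 7.44 and 7.65 on total embryo arrays (-1.29 ± 0.15, adjusted p = 8.17e-06), with little spread in either group. After level adjustment the differences were -0.26 and -0.24 and neither passed (adjusted p = 0.671 and 0.252), although all NCP arrays were still below all total embryo arrays for *Nrp2*. With arrays averaged per sample number *Nrp2* passed (adjusted p = 0.0162) and *Nrp1* did not (adjusted p = 0.0545).

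**Figure D3:**
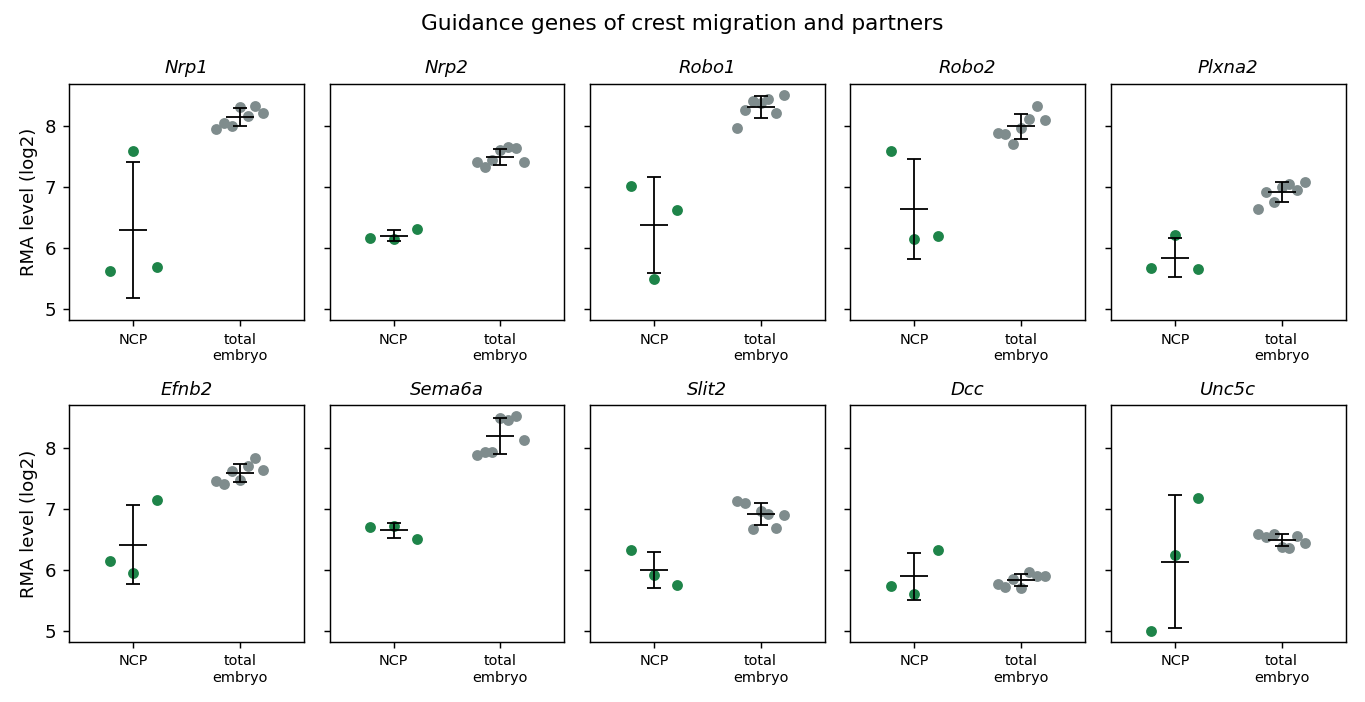
RMA level (log2) of 10 guidance genes known from crest migration or their partners, with the 3 NCP arrays (green, left) and the 7 total embryo arrays (grey, right) as points and mean ± SD as bars. *Nrp1*, *Nrp2*, *Robo1*, *Robo2*, *Plxna2*, *Efnb2*, *Sema6a* and *Slit2* lie below total embryo on all 3 NCP arrays, and *Dcc* and *Unc5c* overlap.

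Among the 13 Eph receptors measured, 3 were higher in NCPs, 1 was lower and 9 did not pass. *Epha10*, a member without kinase activity, stood at 7.75, 6.59 and 6.96 on the NCP arrays and at 6.16, 6.28 and 6.57 on total embryo arrays (0.75 ± 0.22, adjusted p = 0.00891). All NCP arrays were above all total embryo arrays, the closest at 6.59 and 6.57, and without NCP replicate 1 the difference was 0.43. A second probe set of *Epha10* differed by 0.53 (adjusted p = 0.0292) and stood at -0.19 after level adjustment, where the first was at 0.79. *Epha8*, an ephrin-A receptor, stood at 6.06, 7.08 and 6.5 on the NCP arrays and at 5.46, 5.67 and 5.85 on total embryo arrays (0.86 ± 0.20, adjusted p = 0.00241), and did not pass after level adjustment (0.41, adjusted p = 0.172). *Ephb1* was higher by 0.71 and stood at -0.026 after level adjustment. Its second probe set, at 0.36, did not pass (adjusted p = 0.0927), and the first did not without NCP replicate 1 (0.41, adjusted p = 0.0541). With averaging none of *Epha10*, *Epha8* and *Ephb1* passed (adjusted p = 0.185, 0.117 and 0.193). *Epha4*, which binds ephrins of both classes, stood at 5.97, 5.68 and 6.11 on the NCP arrays and at 6.73, 7.02 and 7.08 on total embryo arrays (-1.04 ± 0.16, adjusted p = 7.46e-05). It stayed lower after level adjustment at -0.47 (adjusted p = 0.0443) and with arrays averaged per sample number (adjusted p = 0.0347). *Epha6* did not pass in the deposited values (0.11, interval -0.49 to 0.71). It was lower after level adjustment (-1.11), and also after rescaling by quantile normalization (-1.11) or cyclic loess (-1.33). Its levels were 4.94, 3.69 and 5.27 on the NCP arrays and 4.31, 4.48 and 4.82 on total embryo arrays. It averaged the 22.2nd percentile of the floor genes on NCP arrays and the 76.1st on total embryo arrays.

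Among the 8 ephrins 3 were higher in NCPs, 2 were lower and 3 did not pass. *Efna3* and *Efna2* are lipid-anchored ligands of EphA receptors. *Efna3* stood at 6.07, 6.72 and 5.79 on the NCP arrays and at 4.49, 4.62 and 5.09 on total embryo arrays (1.52 ± 0.21, adjusted p = 4.04e-05). *Efna2* stood at 6.57, 5.39 and 5.98 on the NCP arrays and at 4.50, 4.69 and 4.73 on total embryo arrays (1.32 ± 0.21, adjusted p = 0.000138). Neither passed after level adjustment (0.40 and 0.19), and both lay below the 95th percentile of the floor genes in either group. *Efna3* averaged the 80.1st percentile on NCP arrays and the 80.6th on total embryo arrays, and *Efna2* the 68.7th and the 79.9th, and the floor genes themselves were higher in NCPs by a median of 1.66. *Efnb1*, a transmembrane ephrin of crest cells, stood at 6.71, 7.92 and 7.95 on the NCP arrays and at 6.62, 6.88 and 7.02 on total embryo arrays (0.71 ± 0.25, adjusted p = 0.0227). NCP array 1 lay within the total embryo range, the other 2 lay above it, and the call was lost without NCP replicate 2 (0.51) or 3 (0.49). After level adjustment its increase was the largest of any member, at 1.15 (adjusted p = 0.00724). *Efnb2*, the transmembrane ephrin known from arteries and crest boundaries, stood at 6.15, 5.95 and 7.14 on the NCP arrays and at 7.41, 7.62 and 7.83 on total embryo arrays (-1.17 ± 0.23, adjusted p = 0.000639). *Efna5* stood at 5.75, 5.24 and 6.81 on the NCP arrays and at 6.96, 7.32 and 8.12 on total embryo arrays (-1.58 ± 0.33, adjusted p = 0.000977). After level adjustment *Efnb2* was at -0.045 and *Efna5* at -0.52, and neither passed. With averaging *Efnb1* and *Efnb2* did not pass (adjusted p = 0.244 and 0.0701).

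Among the 4 Robo receptors 2 were lower in NCPs, 1 was higher and 1 did not pass, and among their 3 Slit ligands 2 were lower and 1 did not pass. *Robo1* stood at 7.01, 5.5 and 6.62 on the NCP arrays and at 7.97, 8.37 and 8.50 on total embryo arrays (-1.93 ± 0.27, adjusted p = 3.69e-05). *Robo2* stood at 7.59, 6.15 and 6.19 on the NCP arrays and at 7.71, 7.97 and 8.33 on total embryo arrays (-1.35 ± 0.28, adjusted p = 0.000882). In both genes NCP array 1 was the highest of the NCP arrays and still below every total embryo array. *Robo3*, known from commissural axons, stood at 5.43, 5.63 and 6.15 on the NCP arrays and at 4.76, 4.93 and 5.02 on total embryo arrays (0.83 ± 0.17, adjusted p = 0.00100). It averaged the 60.5th percentile of the floor genes on NCP arrays and the 86.9th on total embryo arrays. *Slit2*, a secreted Robo ligand, stood at 6.33, 5.91 and 5.75 on the NCP arrays and at 6.66, 6.91 and 7.12 on total embryo arrays (-0.91 ± 0.18, adjusted p = 0.000590). *Slit3* was lower at -0.54 ± 0.19 (adjusted p = 0.0230), a call lost without NCP replicate 1 (-0.39) or 3 (-0.50). After level adjustment none of the 7 passed, and *Robo2*, *Robo3* and *Slit3* changed sign (0.12, -0.14 and 0.33), as did *Robo4* and *Slit1*, which had not passed before. With averaging only *Robo1* passed (adjusted p = 0.0214), and *Robo2*, *Robo3*, *Slit2* and *Slit3* had an adjusted p of 0.0705, 0.0985, 0.0620 and 0.261. *Robo4*, the endothelial member, averaged 6.15 ± 0.12 in NCPs and 5.98 ± 0.14 in total embryo (SD) and did not pass.

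Among the 4 netrins 3 were higher in NCPs, and among *Dcc* and the 4 Unc5 receptors 1 was higher and 1 lower. *Ntn3* stood at 7.12, 7.04 and 6.88 on the NCP arrays and at 5.76, 5.97 and 6.08 on total embryo arrays (1.08 ± 0.15, adjusted p = 3.28e-05). The groups did not overlap, the NCP arrays differed among themselves by less than in most members, and the increase was 0.80 after level adjustment (adjusted p = 0.00238). *Ntn4*, a netrin of basement membranes, stood at 6.29, 6.83 and 6.85 on the NCP arrays and at 5.87, 5.99 and 6.04 on total embryo arrays (0.69 ± 0.16, adjusted p = 0.00219), and *Ntn5* was higher by 0.67. Both missed the threshold after level adjustment (0.43 and 0.18, adjusted p = 0.0780 and 0.496). *Ntn1*, the netrin best known as an axon attractant, stood at 6.20, 4.96 and 6.02 on the NCP arrays and at 5.57, 5.79 and 6.07 on total embryo arrays, a difference of -0.098 (interval -0.62 to 0.43) that was 0.29 without NCP replicate 2. *Dcc*, its attractive receptor, stood at 5.74, 5.61 and 6.33 on the NCP arrays and at 5.71, 5.85 and 5.97 on total embryo arrays, a difference of 0.060 (interval -0.32 to 0.44) that was -0.16 without NCP replicate 3 and -0.29 after level adjustment. *Unc5b*, known as a repulsive netrin receptor in vessels, stood at 6.49, 6.0 and 6.53 on the NCP arrays and at 5.23, 5.49 and 5.80 on total embryo arrays (0.88 ± 0.18, adjusted p = 0.000948, and 0.27 after level adjustment, adjusted p = 0.313). *Unc5c*, a repulsive netrin receptor, stood at 5.00, 6.24 and 7.17 on the NCP arrays and at 6.36, 6.54 and 6.60 on total embryo arrays. Its NCP arrays lay below, below and above all total embryo arrays, so the difference of -0.36 was 0.21 without NCP replicate 1 and -0.87 without NCP replicate 3 (adjusted p = 0.404 and 0.00970). *Unc5d* was lower at -0.63 (adjusted p = 0.0219), which did not pass without NCP replicate 3 (-0.44), and its second probe set was higher by 0.62 (adjusted p = 0.0263). *Unc5a* did not pass in the deposited values (0.11). It was lower after level adjustment (-0.67), and also after quantile normalization (-0.81) or cyclic loess (-0.79). With averaging *Ntn4*, *Ntn5*, *Unc5b* and *Unc5d* did not pass (adjusted p = 0.134, 0.131, 0.0687 and 0.170).

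Of the 34 calls, 10 held after level adjustment. Over all genes the calls fell as well, from 34.8% higher and 31.0% lower to 8.24% and 8.69%. How many of those were the same genes was not counted, so no share stands beside the 10. The 7 higher in NCPs were the ligands *Efnb1*, *Ntn3*, *Sema4c* and *Sema4f* and the receptors *Epha10*, *Plxna3* and *Plxnb3*. The 3 lower were *Sema3a*, *Sema3c* and *Epha4*. All of these but *Efnb1* and *Epha10* also passed with arrays averaged per sample number, which makes 8. The higher ones averaged the 93.6th to 98.1st percentile of the floor genes on NCP arrays, and the lower ones the 67.5th to 70.6th. On total embryo arrays the higher ones averaged the 93.4th to 99.9th percentile, and the lower ones the 99.9th to 100th. Of the higher ones, all but *Sema4f* lay at a lower percentile on NCP arrays than on total embryo arrays.

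**Figure D4:**
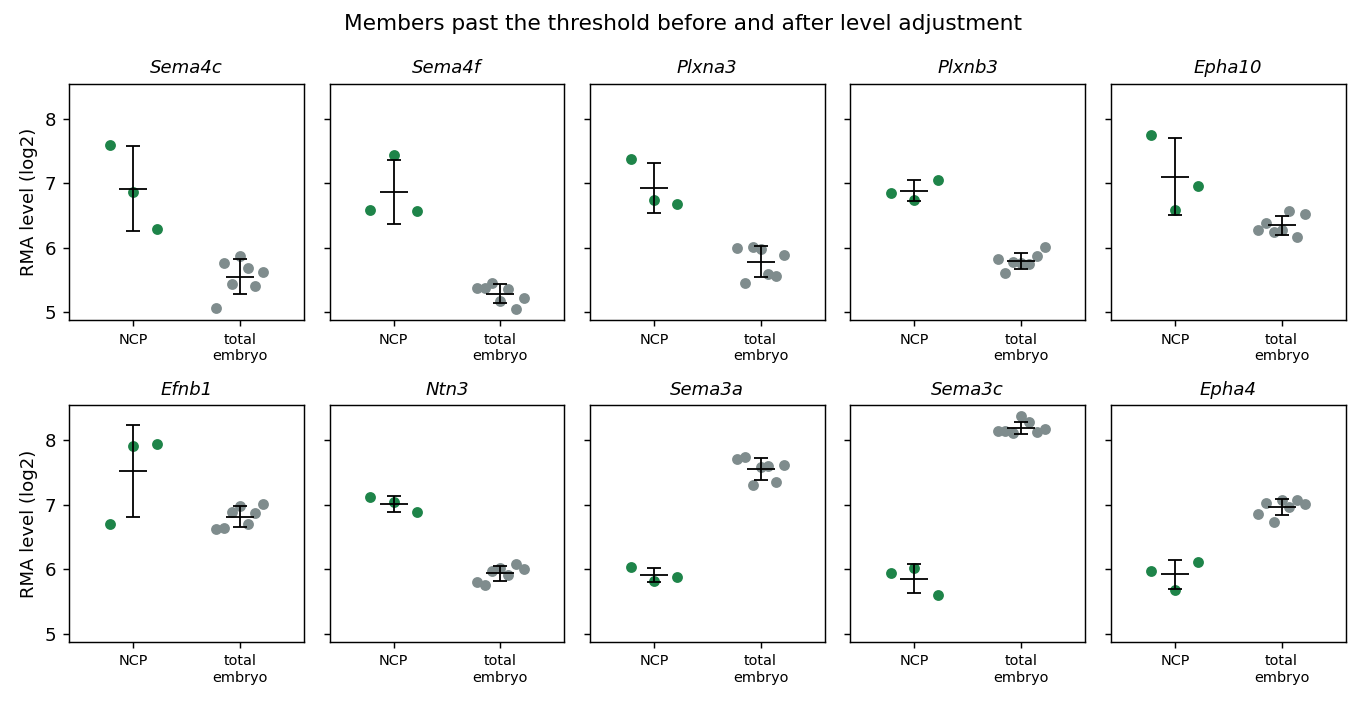
RMA level (log2) of the 10 members that passed before and after level adjustment, with the 3 NCP arrays (green, left) and the 7 total embryo arrays (grey, right) as points and mean ± SD as bars. The groups do not overlap except for *Efnb1*, whose lowest NCP array (6.71) lies among the total embryo arrays.

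The NCP arrays differed among themselves more than the total embryo arrays did. Correlations between arrays were 0.58 to 0.68 among NCP arrays and 0.95 to 0.99 among total embryo arrays. NCP array 2 correlated at 0.58 with NCP arrays 1 and 3. With the total embryo arrays, NCP array 1 correlated at 0.59 to 0.61, NCP array 3 at 0.63 to 0.65 and NCP array 2 lowest, at 0.46 to 0.48. NCP array 2 also had the smallest SD over probe sets (0.97) and the highest floor median (5.62). The highest and lowest NCP array were over 1 log2 unit apart in 27 members (39.7%, and 41.5% of all genes). Among the total embryo arrays 3 members had such a range, beside 2225 of all 19937 genes. The median range of the members was 0.76 in NCPs and 0.52 in total embryo, and that of all genes 0.88 and 0.58. *Plxna1* ran over 6.42, 5.83 and 8.03 and *Efna4* over 6.40, 5.03 and 7.33 on NCP arrays 1, 2 and 3, both highest on array 3 and neither past the test. Array 3 was the highest of the NCP arrays in 29 members, array 1 in 21 and array 2 in 18, and over all genes in 6854, 6550 and 6533. The 2 total embryo sample numbers did not overlap in 10 members: *Ephb4*, *Nrp2*, *Plxna1*, *Plxnb2*, *Plxnd1* and *Slit3* were higher in the sample number with 4 arrays, and *Ntn5*, *Sema3a*, *Sema3g* and *Slit1* in the one with 3. These are 14.7% of the members, against 12% of all genes. The differences were 0.21 to 0.72 in size.

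Other genes of the guidance pathways were counted from lists beside the members. Over all genes, 34.8% were called higher and 31.0% lower. Of 28 other guidance receptors and co-receptors, 5 were higher and 13 lower in NCPs, with a median log2 fold change of -0.42. The largest increases were *Gfra3*, a co-receptor of GDNF family ligands (1.02), and *Cdon*, a hedgehog co-receptor (0.94), and the largest decreases were *Flrt2*, an adhesion protein that binds Unc5 receptors (-2.23), and *Vldlr*, a reelin receptor (-2.14). After level adjustment none of the 28 was higher and 2 were lower, *Chl1* and *Islr2*. Of 15 other ligands 4 were higher and 3 lower, with a median of -0.076. *Ntng1*, a membrane-anchored netrin relative, stood at 7.12, 7.10 and 7.16 on the NCP arrays and at 5.76, 6.18 and 6.35 on total embryo arrays (1.0 ± 0.16, adjusted p = 0.000134), and it stayed higher after level adjustment by 0.86. *Artn*, of the GDNF family, was higher by 0.94 and did not pass after level adjustment (0.11). *Wnt5a* was lower at -1.31 in both fits, and *Cxcl12*, a chemokine of migrating crest cells, at -1.30 (-0.61 after level adjustment, adjusted p = 0.0512). Of 55 intracellular effectors 7 were higher and 30 lower (54.5%), with a median of -0.74. The mean level of that list was 7.17 to 7.37 on total embryo arrays, and 53.2% of all genes at 6.5 to 7.5 were called lower. After level adjustment 6 effectors were higher and 2 lower, with a median of -0.026. *Rnd2*, known from migrating neurons, stood at 8.33, 9.20 and 6.55 on the NCP arrays and averaged 6.22 ± 0.24 in total embryo (1.80 ± 0.41, adjusted p = 0.00178), and was higher by 1.74 after level adjustment (adjusted p = 0.0124). *Dpysl4*, a semaphorin signaling protein, was higher by 1.16, and did not pass after level adjustment (0.57, adjusted p = 0.0679). *Cdc42*, known from the growth cone cytoskeleton, stood at 6.23, 7.36 and 9.97 on the NCP arrays and averaged 10.9 ± 0.37 in total embryo (-3.05 ± 0.57, adjusted p = 0.000424), and *Map1b*, which binds microtubules, was lower at -2.64. Neither passed after level adjustment (-0.52 and -0.35, adjusted p = 0.506 and 0.332). With averaging 1 effector was higher and 14 lower, and *Rnd2* did not pass (adjusted p = 0.0960).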

How the data were processed

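The authors hybridized biotin-labelled RNA to Affymetrix mouse Gene 1.0 ST arrays. The deposited log2 values were made by the authors with RMA in Affymetrix Expression Console 1.1, and which arrays were normalized together is not given in the sources used here. The labels name a GeneChip One-Cycle kit and the methods a NuGEN amplification of small RNA amounts. The number of arrays limits the precision.

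Values were used as deposited for 3 NCP and 7 total embryo arrays, grouped by their labels. Control probe sets (6568 of 34760) were left out and 28192 tested with limma 3.58.1 in R 4.3.3 (lmFit, eBayes, Benjamini-Hochberg adjustment, threshold 0.05). Of these 21640 carry 1 platform symbol, 1321 several and 5231 none. All 68 members matched RefSeq by gene ID. *Ephb2*, which the naming rule lists, is not analysed here. Sequences are from RefSeq (GRCm38.p6), with a promoter for 58 members, and were searched with Python 3.11.15. Array positions are not printed, since the build is not given in the sources used here.

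Members, gene lists and the naming rule were chosen with earlier results of these data known. Named are, by family, the 2 strongest increases and the 2 strongest decreases past the threshold, where there were so many, members whose call held after level adjustment or that exceeded the floor's 95th percentile on all NCP arrays, known crest partners, and from each other list up to 2 genes each way. *Sema4g*, *Sema5a*, *Plxna1*, *Plxna4*, *Epha6*, *Ephb1*, *Efna4*, *Robo4*, *Ntn5*, *Unc5a*, *Chl1*, *Islr2* and the genes that separate the total embryo sample numbers were named after their values were seen. *Gfra3* is in a marker list and a guidance list, and so is *Gap43*.

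Level adjustment subtracts a lowess trend (span 0.3). It removes any real difference that follows level. Alternatives changed the control arrays, repeat arrays, scaling, prior, weights, filters, probe set and threshold, and left out each array.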

Additional observations from a re-analysis of the deposited data

How the results depend on the processing

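Up to 24 alternative settings were run for each of 33 named members (23 for *Efna2*, *Efna3* and *Robo3*, which the filter on dim probe sets left out). The count of members higher in NCPs, 16 in the deposited values, was 8 with total embryo arrays of the NCP title series and 7 with arrays averaged per sample number. It was 9 after cyclic loess, 7 after level adjustment, and 0 with level adjustment and averaging together. Over all 19937 genes the counts higher were 6932 in the deposited values and 4489, 3255, 2913, 1642 and 4 in these settings in turn. The count lower, 18 in the deposited values, was 10 with averaging, 10 after cyclic loess, 5 after level adjustment, and 0 with level adjustment and averaging together. Over all genes it was 6188 in the deposited values and 3374, 3404, 1733 and 0 in these settings in turn. With only the 1 total embryo array of the NCP title date, its spread is assumed to be that of the NCP arrays, and calls are not counted. Averaging and single control arrays leave fewer samples by construction, and the cause of the other changes was not tested. Level adjustment with averaging was chosen after seeing the data. Leaving out each array gave 15 to 18 members higher and 15 to 19 lower, beside 6622 to 6940 and 5891 to 6308 of all genes.

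The receptor median, 0.012, was -0.18 after quantile normalization, -0.045 after cyclic loess, -0.050 after level adjustment, -0.041 with averaging as well, -0.21 over the probe sets above the floor in a group mean (29 receptors), and -0.060 to 0.042 with an array left out. The ligand median, 0.13, was 0.25 against the array of the NCP title date and -0.017 to 0.17 with an array left out (-0.017 without NCP replicate 3). Scaling moved the median of all genes from 0.079 in the deposited values to -0.020 (quantile), -0.041 (loess) and -0.034 (level adjustment).

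Some named members changed sign. *Sema3f* (-0.11) was 0.13 against the array of the NCP title date, 0.083 after quantile normalization, 0.16 after cyclic loess, 0.12 after level adjustment and 0.12 with averaging. *Ntn1* was 0.16 against the array of that date, and -0.34 to 0.29 with an array left out. After quantile normalization, cyclic loess, level adjustment and level adjustment with averaging, *Slit3* was 0.029, 0.39, 0.33 and 0.34, and *Dcc* -0.29, -0.34, -0.29 and -0.28. After the last 3 of these, *Sema6a* was 0.018, 0.071 and 0.095, *Robo2* 0.085, 0.12 and 0.12, and *Robo3* -0.14, -0.14 and -0.15. With an array left out *Dcc* ran over -0.16 to 0.20 and *Unc5c* over -0.87 to 0.21. Of the 29 named members called, 19 lost their call, sign changes included, after level adjustment, 13 with averaging, 15 after cyclic loess, 6 after quantile normalization and 4 at a threshold of 0.01.

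No paired analysis was possible because the replicate numbers only follow the order of the arrays and pair none of them. The filter on dim probe sets kept 61 of 68 members, 60 through total embryo and 18 through NCPs. It therefore keeps members that are high in total embryo by construction, and the receptor median of -0.21 over those it kept supports nothing. On NCP arrays a level within the range of the floor genes cannot be told from no expression, and that floor is itself higher there. Members within it were still called in both directions, such as *Efna2* (higher, 68.7th percentile) and *Sema3c* (lower, 67.5th percentile). No detection limit was set.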
